A study of Mus musculus with 6 samples.

Results

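Iron-sulfur cluster and heme biosynthesis was followed here through 41 genes, chosen by name for their place in these pathways. The rule used no measured value, but the choice was made with earlier results of these data known. All 41 were found among the 54715 genes of the deposited count table, and all 41 were among the 16758 genes expressed highly enough to be tested. They were placed in 4 classes. There were 16 genes of mitochondrial cluster assembly and iron import, 7 of cytosolic cluster assembly, 8 of heme synthesis and 10 of heme breakdown and transport.

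RNA sequencing had been carried out on 3 libraries of wild-type (WT) mouse advanced embryonic stem cells (ASCs) and 3 libraries of Bdh2-knockout ASCs, with the genotypes labelled wild type and Bdh2-/-. The strain label of all 6 was a cross, with a female 129/sv mouse as dam and a GOF/GFP male mouse as sire, the latter carrying a green fluorescent reporter driven by Oct4 regulatory sequence. Both groups were grown without further treatment in ABCL medium, which is N2B27 medium with activin A, BMP4, the GSK3 inhibitor CHIR99021 and leukemia inhibitory factor. The knockout was made with CRISPR/Cas9, and edited cells were expanded from single colonies. For further work the study selected a knockout ASC line with a deletion on both alleles, so an effect of the knockout and of that line cannot be told apart. Nothing in the labels says that the 3 libraries of a group were separate cultures, so p-values measure only the spread between these libraries, which may be technical.

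Bdh2 encodes a cytosolic dehydrogenase that was described as making a mammalian siderophore, a small molecule that binds iron inside cells. Iron that enters mitochondria has a pair of main uses. The scaffold protein Iscu collects it with sulfur from the desulfurase Nfs1 into iron-sulfur clusters, which are passed on to respiratory and metabolic enzymes and, through a separate cytosolic machinery, to DNA polymerases, helicases and other cytosolic and nuclear proteins. Ferrochelatase inserts it into protoporphyrin to make heme, after a pathway that starts in the matrix, runs through the cytosol and ends in mitochondria again. Heme is broken down by heme oxygenases, which release the iron.

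Members changed in both directions, mostly by modest amounts. In Bdh2-knockout ASCs, 25 of the 41 genes (61%) passed edgeR's quasi-likelihood test at a Benjamini-Hochberg adjusted p of 0.05, against 41.7% of all tested genes. Of these, 11 rose and 14 fell, where 21% of all tested genes rose and 20.8% fell. Of the 16 mitochondrial assembly genes, 8 fell, 1 rose and 7 did not pass. Of the 7 cytosolic assembly genes, 4 rose, 1 fell and 2 did not pass. The heme genes were split, with 3 rising and 2 falling in synthesis and 3 rising and 3 falling in breakdown and transport. Only 5 of the 41 (12.2%) differed by 0.5 or more on the log2 scale, against 22% of all tested genes. The median size of the log2 fold change, without its sign, was 0.27 for the 41 genes and 0.23 for all tested genes. With library totals in place of TMM factors, the split was 9 higher and 17 lower, and it was 11 higher and 8 lower with DESeq2.

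**Figure D1:**
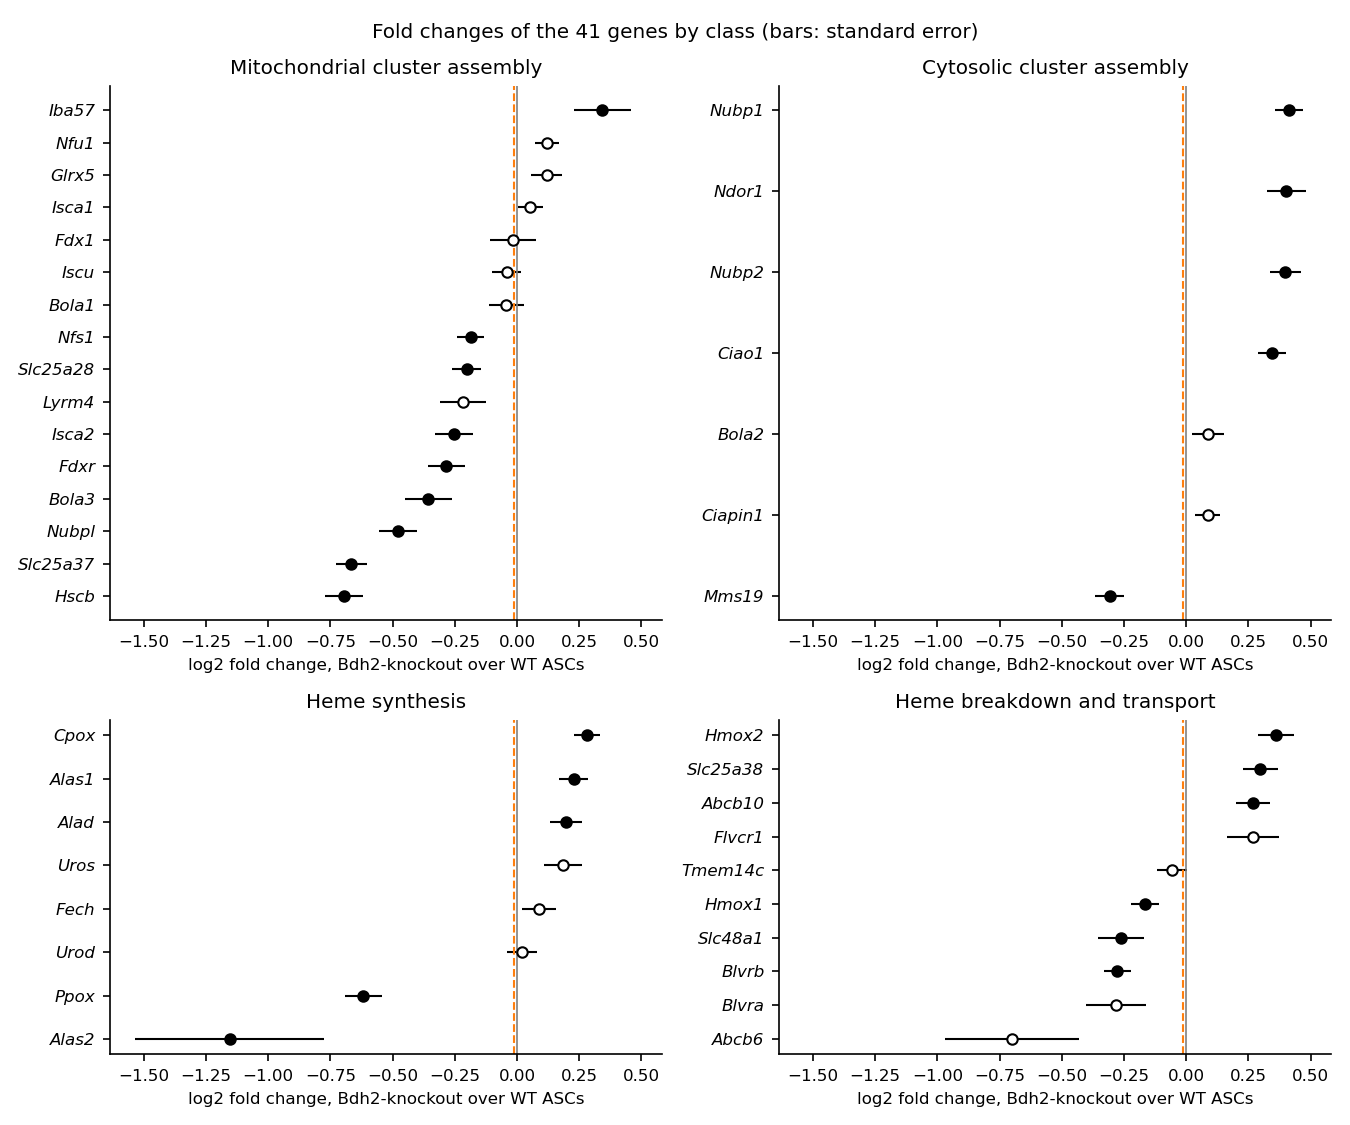
Log2 fold change of each of the 41 genes (x axis, Bdh2-knockout over WT ASCs, 3 libraries each), in 4 panels by class. Bars are standard errors derived from the test statistic. Filled points passed edgeR's test at an adjusted p of 0.05, the grey line is 0 and the dashed orange line is the median of all tested genes (-0.01). Most filled points lie left of 0 for mitochondrial assembly and right of 0 for cytosolic assembly.

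The libraries held 18927748 to 28333541 counts, and 3 counts corresponded to 0.106 to 0.158 CPM, the count scaled to library size with TMM factors. Bdh2 itself was at 10.5, 9.56 and 8.27 CPM in the WT libraries and at 5.95, 4.99 and 5.38 CPM in the knockout libraries. It was lower in every knockout library but still present, at 57.7% of the WT mean (log2 fold change -0.79 ± 0.12 SE, edgeR adjusted p = 2.46e-04), and a count over the whole gene does not resolve the edited stretch. The label of the cells was checked with pluripotency markers. All 10 were tested, of which 5 rose and 1 fell. Their summed level was 7288 to 7371 CPM in WT and 7445 to 7567 CPM in knockout libraries, while scaled by gene length (TPM) it was 16851 to 17410 in WT and 15849 to 16369 in knockout libraries. Pou5f1 alone was at 1389 to 1676 CPM in the 6 libraries.

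Markers of other cell types were read as well, and most of the endoderm list moved with the genotype. Of 14 tested markers of primitive and visceral endoderm, 12 rose and 2 fell, and their summed level was 271.8 to 297.2 CPM in WT and 686.5 to 777.9 CPM in knockout libraries. Gata6 was at 1.42 CPM in WT and 5.71 CPM in knockout ASCs. Transcripts of adult hepatocytes varied within each genotype, with sums of 495.9, 301.6 and 38.9 CPM in WT and 31.0, 138.8 and 19.3 CPM in knockout libraries, of which Alb was the largest part. Of 22 tested hepatocyte genes, 16 were called lower, and 0 had ranges that did not overlap between genotypes. Of the erythroid list only 3 genes could be tested, 4 genes were at 0 in all libraries, and the globin Hba-a1 reached at most 0.515 CPM. Macrophage markers summed to 10.7 to 15.5 CPM in WT and 17.7 to 19.1 CPM in knockout libraries, with 2 of 4 tested genes rising. Cd68 made up most of this sum (means of 9.01 and 13.5 CPM). Csf1r (0.506 and 0.236 CPM) and Lyz2 (0.851 and 0.256 CPM) went the other way. Fibroblast markers summed to 31.9 to 36.2 and 24.1 to 29.3 CPM, with 2 of 6 tested genes falling. Col1a1 was the largest part (17.3 and 11.3 CPM), and Col1a2 was higher in knockout ASCs (3.27 and 4.28 CPM). The part of these cell types in the results on the 41 genes was not tested. In bulk RNA, fewer cells that express a gene and less of its RNA per cell cannot be told apart. With a score of hepatocyte transcripts as a covariate, 20 of the 25 genes passed, and without the 3 libraries richest in these transcripts 17 did. The ranges of the genotypes did not overlap in any of the 25. Such separation was seen in 31 of the 41 genes and in 52.4% of all tested genes.

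Among the genes of mitochondrial cluster assembly, the chaperone of cluster transfer and an iron importer fell furthest. Hscb (chr5:110829070-110839777, GRCm38) encodes the co-chaperone that brings the newly made cluster on Iscu to the transfer machinery. It was at 21.8, 24.9 and 23.1 CPM in the WT libraries and at 15.1, 13.4 and 14.6 CPM in the knockout libraries. The highest knockout library stayed well below the lowest WT library, and the mean fell to 61.8% of WT (log2 fold change -0.70 ± 0.08 SE, adjusted p = 1.68e-05). Slc25a37 (chr14:69241848-69285112), or mitoferrin 1, carries iron across the inner mitochondrial membrane. Its levels were 36.1, 35.5 and 33.2 CPM in WT and 21.6, 21.4 and 23.1 CPM in knockout ASCs. Again the groups were far apart, and the knockout mean was 63.0% of WT (log2 fold change -0.67 ± 0.06 SE, adjusted p = 3.97e-06). Of the other tested genes within 5 Mb of Slc25a37, 32 of 71 were higher and 6 lower, and their median was 0.15 (log2 fold change). Around Hscb, 19 of 148 were higher and 39 lower, and the median was -0.05.

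Nubpl (chr12:52097737-52312744) delivers clusters to respiratory complex I. It was at 21.6, 20.3 and 21.6 CPM in the WT libraries and at 15.6, 13.9 and 16.1 CPM in the knockout libraries. The ranges were separate, and the level fell by 0.48 ± 0.08 (SE) on the log2 scale (adjusted p = 2.81e-04). Iba57, which acts with Isca1 and Isca2 in making the larger clusters late in the pathway, was the member of this class that rose. Its levels were 7.83, 7.13 and 9.14 CPM in WT and 9.76, 11.3 and 9.64 CPM in knockout ASCs. The highest WT library came close to the lowest knockout library (log2 fold change 0.34 ± 0.11 SE, adjusted p = 0.0279). The call was lost with library totals, under DESeq2, when a score of hepatocyte transcripts was a covariate, and when WT replicate 1, WT replicate 2 or knockout replicate 2 was left out.

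The other 5 genes of the class that passed fell by less. Bola3, which helps to hand clusters to lipoic acid synthase and other enzymes, went from 17.9 ± 2.25 to 14.0 ± 0.93 CPM (SD, n = 3 each; log2 fold change -0.36, edgeR adjusted p = 0.00839). The ferredoxin reductase Fdxr, which feeds electrons into cluster synthesis, went from 17.8 ± 0.85 to 14.6 ± 0.67 CPM (-0.28, adjusted p = 0.00825). The log2 fold changes were -0.25 for Isca2 (adjusted p = 0.0175), -0.20 for the second mitoferrin Slc25a28 (adjusted p = 0.0127) and -0.19 for the desulfurase Nfs1 (adjusted p = 0.0144). The calls of Isca2, Slc25a28 and Nfs1 were lost under DESeq2, and that of Isca2 also beside the hepatocyte covariate. Leaving out 1 library ended the call of Isca2 (WT replicate 1 or knockout replicate 3), Slc25a28 (knockout replicate 2), Nfs1 (knockout replicate 1 or 3) and Fdxr (knockout replicate 3). Nfs1 shares 11.2% of its exon length with other annotated genes. The remaining 7 did not pass. The scaffold Iscu was at 40.9 ± 2.91 CPM in WT and 39.7 ± 0.64 CPM in knockout ASCs, although 15.5% of its 50-base sequences also occur elsewhere, mainly in a pseudogene. Glrx5, Isca1, Nfu1, Bola1 and Fdx1 had log2 fold changes of 0.12, 0.05, 0.12, -0.04 and -0.02, and Lyrm4, the partner that stabilises Nfs1, had -0.22 (adjusted p = 0.0723). The median of the class was -0.19, against -0.01 for all tested genes. The class summed to 552.9, 548 and 552.4 TPM (a level scaled by gene length) in the WT libraries and to 495, 482.9 and 497.6 TPM in the knockout libraries, 2 ranges that did not overlap. Without the 3 libraries with the most hepatocyte transcripts (WT replicates 1 and 2, knockout replicate 2), 5 genes were called lower, Bola3, Isca2 and Slc25a28 having lost their calls, and with DESeq2 also 5. Hscb, Slc25a37 and Nubpl passed in both.

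In the cytosolic machinery, 4 of 7 genes rose and 1 fell. Nubp1 (chr16:10411948-10424428) and Nubp2 form the scaffold on which cytosolic clusters are put together. Nubp1 was at 37.8, 35.2 and 39.4 CPM in WT and at 49.1, 51.2 and 49.7 CPM in knockout libraries. Every knockout library was above every WT library (log2 fold change 0.41 ± 0.06 SE, adjusted p = 7.95e-05). It shares 36.9% of its exon length with the antisense gene Tvp23a, which was at 1.31 ± 0.25 CPM in WT and 1.09 ± 0.16 CPM in knockout ASCs (SD). Nubp2 was at 82.0, 72.0 and 83.7 CPM in WT and at 101.8, 105.7 and 106.2 CPM in knockout libraries. It too was separated by genotype and rose (fold 1.32, log2 fold change 0.40 ± 0.06 SE, adjusted p = 2.14e-04).

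Ndor1 is the flavoprotein that, with Ciapin1, passes electrons to cytosolic cluster assembly. It was at 14.2, 15.5 and 13.9 CPM in WT and at 18.4, 18.6 and 20.7 CPM in knockout libraries. The groups did not overlap (log2 fold change 0.40 ± 0.08 SE, adjusted p = 0.00121). Its exons are shared at 68.6% with other annotated genes, a second Ndor1 entry and AL732309.1. Ciao1, part of the complex that inserts clusters into target proteins, rose from 38.9 ± 2.58 to 49.5 ± 0.99 CPM (SD, n = 3 each; log2 fold change 0.34, adjusted p = 3.96e-04). Mms19, the adaptor of that complex for DNA polymerases and helicases, fell. It was at 128.9, 114.6 and 119.5 CPM in WT and at 95.6, 94.9 and 103.1 CPM in knockout libraries. These ranges were separate as well (log2 fold change -0.31 ± 0.06 SE, adjusted p = 0.00103). Bola2 and Ciapin1 were close to their WT levels, with log2 fold changes of 0.09 each, and did not pass. All 5 calls in this class held in every alternative run, and the median log2 fold change of the 7 genes was 0.34. The summed level was 399.2, 356.7 and 405.7 TPM in WT and 448, 463.5 and 465.4 TPM in knockout libraries.

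**Figure D2:**
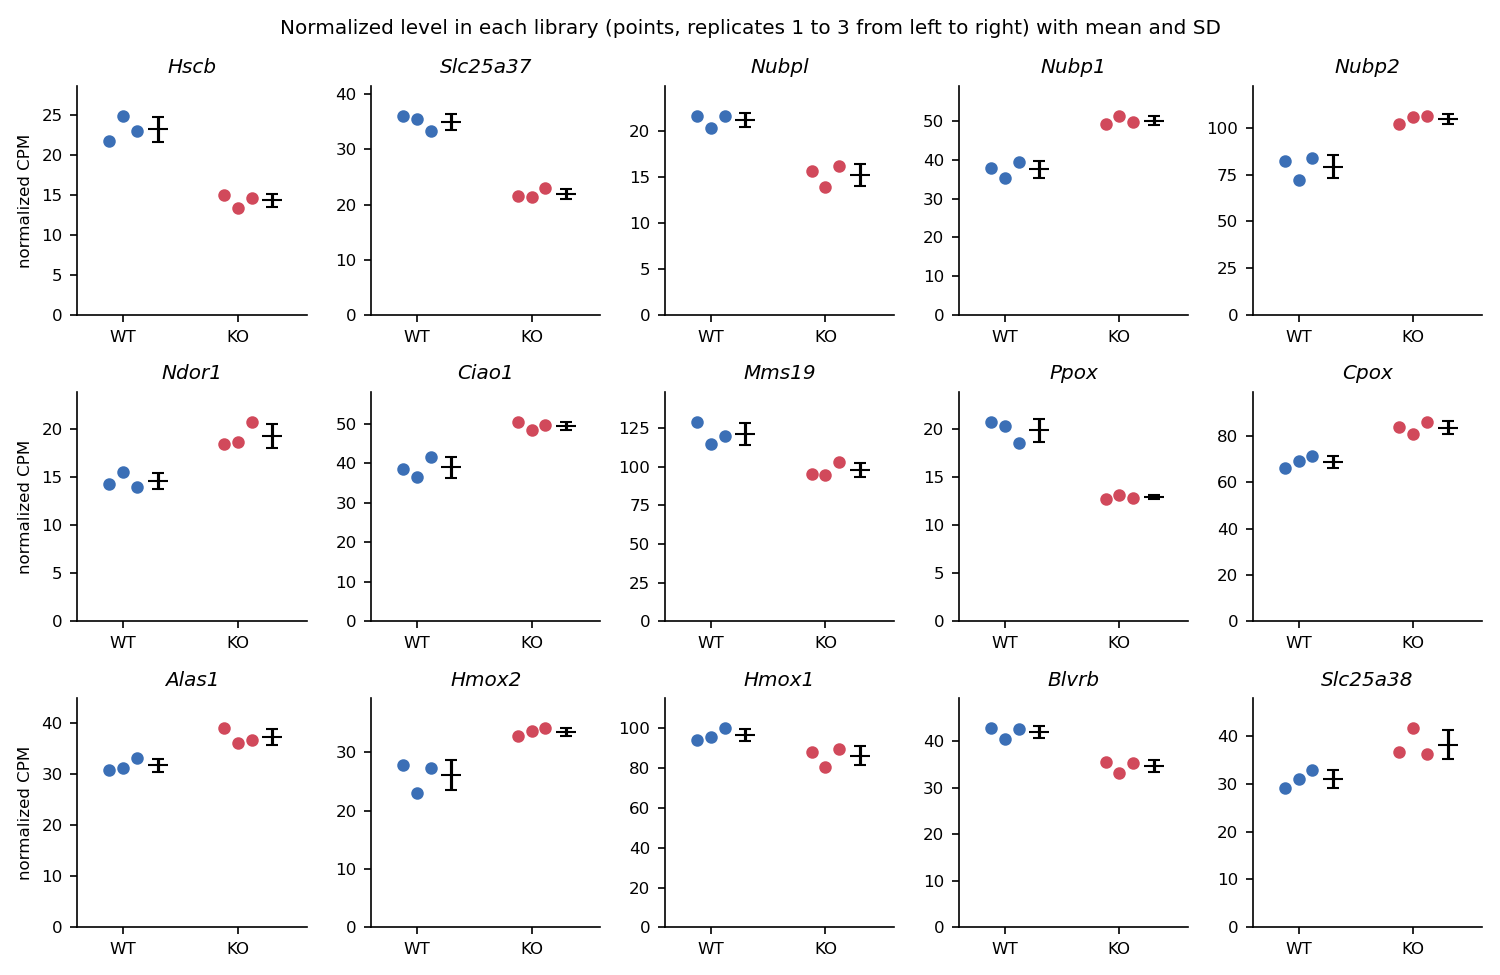
Level of 15 of the genes in each library, in CPM after TMM normalization (y axis from 0), with WT libraries in blue and Bdh2-knockout (KO) libraries in red. Points run from replicate 1 to 3, and the black mark beside them is the mean with its SD (n = 3). Hscb, Slc25a37, Nubpl and Ppox are lower in every knockout library, and Nubp1, Nubp2, Ndor1 and Ciao1 are higher in every knockout library.

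In heme synthesis, Alas1, Alad and Cpox rose a little, while Ppox, the enzyme just before ferrochelatase, fell. Alas1, the widely expressed synthase that starts and limits the pathway, was at 30.9, 31.3 and 33.3 CPM in WT and at 39.1, 36.1 and 36.7 CPM in knockout libraries. The groups were separate but near each other (log2 fold change 0.23 ± 0.06 SE, adjusted p = 0.00687). Alad, which joins the products of Alas1 to porphobilinogen, was at 31.5, 31.9 and 36.6 CPM in WT and at 37.8, 39.8 and 37.4 CPM in knockout libraries. WT replicate 3 lay just below the knockout range (log2 fold change 0.20 ± 0.07 SE, adjusted p = 0.0275), and the call did not hold with library totals or without WT replicate 1, WT replicate 2 or knockout replicate 2. Uros and Urod, which act later in the pathway, did not pass. For Uros the log2 fold change was 0.19 (adjusted p = 0.0634), and for Urod it was 0.02.

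Cpox (chr16:58670292-58717636), the oxidase that makes protoporphyrinogen, was at 66.1, 69.2 and 71.2 CPM in WT and at 84.0, 80.9 and 86.1 CPM in knockout libraries. It was higher in all 3 knockout libraries (log2 fold change 0.28 ± 0.05 SE, adjusted p = 9.48e-04). Ppox (chr1:171275990-171281186), which oxidises that product to protoporphyrin, was at 20.7, 20.3 and 18.5 CPM in WT and at 12.7, 13.1 and 12.8 CPM in knockout libraries. Its knockout libraries were close together and far below WT, at 65.0% of the WT mean (log2 fold change -0.62 ± 0.07 SE, adjusted p = 3.55e-05). Its exons overlap on 17.5% of their length with the antisense gene B4galt3, which was at 27.98 ± 1.83 CPM in WT and 28.15 ± 1.65 CPM in knockout ASCs (SD), and the strand setting of the counting is not stated. Ferrochelatase (Fech), which inserts the iron, was at 26.7 ± 1.94 CPM and 28.5 ± 1.35 CPM and did not pass (adjusted p = 0.308).

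Alas2, the erythroid form of the starting enzyme, was scarce in both genotypes. It had 18, 13 and 15 counts in the WT libraries and 6, 10 and 9 counts in the knockout libraries, or 0.927, 0.644 and 0.594 CPM against 0.218, 0.367 and 0.376 CPM. All knockout libraries were lower, but the level rested on few reads (log2 fold change -1.15 ± 0.38 SE, adjusted p = 0.0268). The call did not hold under DESeq2 or beside the hepatocyte covariate, nor when WT replicate 1 or any 1 of the knockout replicates was left out. Alas2 shares 15.5% of its exon length with antisense genes, mainly Apex2, which rose from 19.2 ± 1.20 to 28.1 ± 1.64 CPM (SD). The erythroid factor Gata1 was at 0.304 CPM in WT and 0.195 CPM in knockout ASCs. The calls of Alas1 and Alad were also lost with the hepatocyte covariate and without the 3 libraries richest in hepatocyte transcripts, so that 2 of the 8 genes, Cpox and Ppox, passed there. The 8 genes summed to 225.5, 216.3 and 239.9 TPM in WT and to 233.8, 242.5 and 250.4 TPM in knockout libraries, ranges that overlapped.

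**Figure D3:**
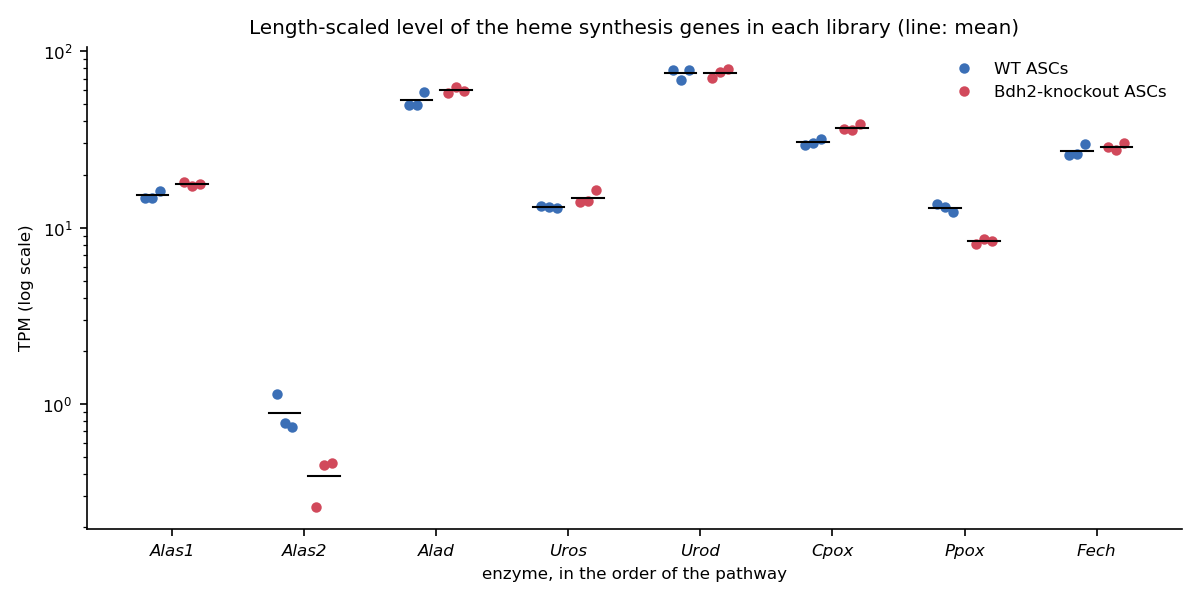
Level of the 8 heme synthesis genes per library in TPM, which is scaled by gene length (y axis, log scale), in the order of the pathway from left to right. Points are libraries (WT in blue, Bdh2-knockout in red, n = 3 each) and lines are means. Urod and Alad have the highest TPM, Alas2 is under 2 TPM in every library, and Ppox steps down from 13.0 to 8.37 TPM without overlap. Alas1, Alas2, Uros and Cpox also separate the genotypes in this unit, while Alad, Urod and Fech overlap.

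The oxygenases that open the heme ring went in opposite directions. Hmox1, the inducible form, was at 94.1, 95.5 and 100.2 CPM in WT and at 88.2, 80.8 and 89.8 CPM in knockout libraries. The groups were separated by a small gap (log2 fold change -0.16 ± 0.06 SE, adjusted p = 0.0311), and the call was lost with DESeq2, without a filter on low counts and without WT replicate 2, WT replicate 3, knockout replicate 1 or knockout replicate 2. Hmox2 (chr16:4726361-4766742), the constitutive form, was at 27.9, 23.1 and 27.3 CPM in WT and at 32.8, 33.6 and 34.2 CPM in knockout libraries. All its knockout libraries were above WT (log2 fold change 0.36 ± 0.07 SE, adjusted p = 0.0013). The antisense gene Cdip1, with which Hmox2 shares 40.2% of its exon length, rose as well, from 59.0 ± 1.81 to 67.9 ± 0.48 CPM (SD, log2 fold change 0.20). The biliverdin reductase Blvrb was at 42.9, 40.6 and 42.6 CPM in WT and at 35.6, 33.2 and 35.3 CPM in knockout libraries. It was lower in every knockout library (log2 fold change -0.28 ± 0.05 SE, adjusted p = 0.00133). Blvra, the other biliverdin reductase, had the same log2 fold change of -0.28 but did not pass (adjusted p = 0.0743).

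Carriers of glycine, heme and porphyrins showed no common direction. Slc25a38, which brings glycine into mitochondria for the Alas enzymes, was at 29.0, 31.0 and 32.9 CPM in WT and at 36.6, 41.6 and 36.2 CPM in knockout libraries. The groups were separate (log2 fold change 0.30 ± 0.07 SE, adjusted p = 0.0039). The call was lost without the 3 libraries with the most hepatocyte transcripts. Abcb10, a mitochondrial transporter needed for heme synthesis, was at 22.8, 24.8 and 22.3 CPM in WT and at 27.29, 27.03 and 29.96 CPM in knockout libraries. It rose without overlap (log2 fold change 0.27 ± 0.07 SE, adjusted p = 0.00653).

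Slc48a1, which moves heme out of endolysosomes, was at 14.1, 11.9 and 14.6 CPM in WT and at 10.9, 11.3 and 11.8 CPM in knockout libraries. WT replicate 2 was just above the knockout range (log2 fold change -0.26 ± 0.09 SE, adjusted p = 0.0389), and the call was lost in 8 of 14 alternatives, which were DESeq2, no filter, the replicate block and the fits without WT replicate 1, WT replicate 3 or any 1 knockout replicate. The porphyrin transporter Abcb6 was at 1.70, 1.29 and 1.54 CPM in WT and at 0.690, 1.14 and 0.960 CPM in knockout libraries. The ranges did not overlap, but the test was not passed (log2 fold change -0.70 ± 0.27 SE, adjusted p = 0.0527), and 55.2% of its exon length is shared with another annotated gene. The heme exporter Flvcr1 (0.27, adjusted p = 0.0517) and the porphyrin carrier Tmem14c (-0.06, adjusted p = 0.483) did not pass either. The 10 genes of heme breakdown and transport summed to 500.5, 519.9 and 548.8 TPM in WT and to 490.2, 506.5 and 515.9 TPM in knockout libraries, which also overlapped.

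Between genes, levels were compared in TPM. The order rests on the deposited gene lengths, which were 914 bases for Tmem14c, 1430 for Nubp2 and 9212 for Ciapin1. In CPM, without lengths, Ciapin1 (153.2 in WT ASCs) was above Nubp2 (79.25) and Tmem14c (62.19). Tmem14c, Nubp2 and Hmox1 had the highest TPM of the 41 in both genotypes. In WT ASCs Tmem14c led with 201 ± 16.2 TPM (SD, n = 3), and Nubp2 and Hmox1 followed with 164 ± 14.4 and 163 ± 6.65 TPM, whose ranges overlapped. In knockout ASCs Nubp2 led with 214 ± 8.93 TPM, and all its libraries (204.2 to 221 TPM) lay above those of Tmem14c (183 to 200.8 TPM). Hscb moved from rank 5 of 41 (75.8 TPM) to rank 12 (46.5 TPM) and Slc25a37 from rank 25 (17.1 TPM) to rank 32 (10.7 TPM). Abcb6 and Alas2 were the least abundant in both, under 1 TPM on average.

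Ratios between related genes within a library do not depend on the scaling between libraries. Of 11 such ratios in TPM, 8 did not overlap between genotypes. The share over ratios of other genes was not computed. Single levels were already separated in 52.4% of all tested genes and in 31 of the 41. Every ratio of the 8 holds at least 1 such gene, so the count adds no result about the pairs. Each of the 8 had p = 0.1 in a two-sided exact permutation test, the smallest that 3 against 3 libraries allow, and 0.138 after adjustment over the 11. The ratio of Hmox1 to Hmox2 was 4.28, 5.24 and 4.65 in WT and 3.40, 3.04 and 3.33 in knockout libraries. That of Slc25a37 to Slc25a28 was 0.276, 0.279 and 0.258 in WT and 0.186, 0.200 and 0.203 in knockout libraries, so mitoferrin 1 was lower relative to its partner. Nubpl to Nubp1 went from 0.415 ± 0.011 to 0.223 ± 0.021 (SD). The ratio of Nubp1 to Nubp2 was 0.186 ± 0.006 in WT and 0.188 ± 0.004 in knockout ASCs (exact permutation p = 0.7), and that of Blvra to Blvrb 0.214 ± 0.011 and 0.212 ± 0.025 (p = 1, exact). Isca1 to Isca2 went from 0.431 to 0.536 and Bola1 to Bola3 from 3.58 to 4.40.

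The genes on chromosome 16 need a separate remark. All 3 of them (Nubp1, Hmox2 and Cpox) rose, and so did 44.7% of the 494 tested genes of that chromosome, while 8.91% fell. The median log2 fold change of chromosome 16 was 0.19, and the medians of the other chromosomes and the mitochondrial genome were between -0.07 and 0.07. Among other tested genes within 5 Mb, the median was 0.12 around Nubp1 (18 of 48 higher), 0.22 around Hmox2 (26 of 46) and 0.21 around Cpox (17 of 30). The number of copies of the chromosome was not measured here, and its part in the levels of these 3 genes was not tested. Nubp2 and Ciao1 lie on chromosomes 17 and 2, whose medians lay in that range. Without the 3 genes, 8 of the remaining members rose and 14 fell.

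**Figure D4:**
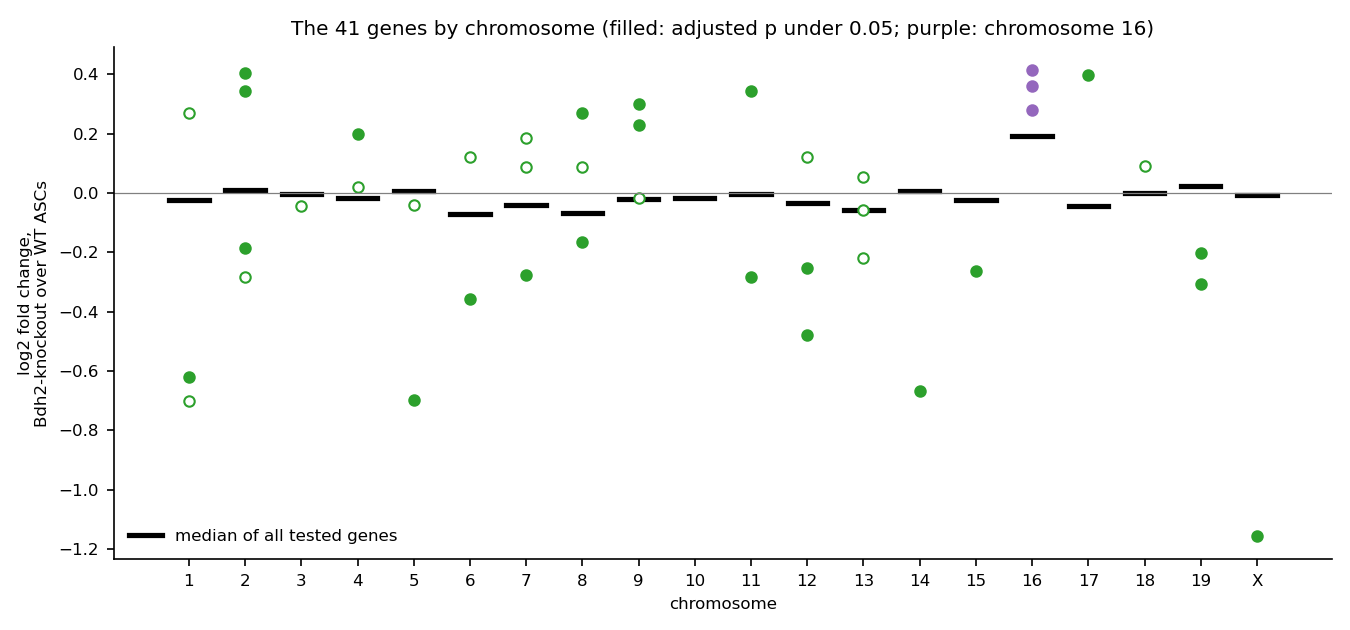
Log2 fold change (y axis, Bdh2-knockout over WT ASCs) of the 41 genes by chromosome (x axis), with black bars for the median of all tested genes of each chromosome. Filled points passed edgeR's test at an adjusted p of 0.05 and open points did not. The bar of chromosome 16 stands at 0.19, and the 3 purple points on it lie above the bar.

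Further genes of these pathways, almost all of them not among the 41, were taken from lists of named genes and described in the same way. Of 30 tested genes of assembly and heme handling, 8 rose and 4 fell (40%), a share close to the 41.7% of all tested genes, with a median log2 fold change of 0.01. Bach1, the heme-sensing repressor of Hmox1, rose from 63.2 ± 1.78 to 86.9 ± 2.26 CPM (SD, n = 3 each; log2 fold change 0.46, adjusted p = 1.8e-05), and it also lies on chromosome 16. Ciao3, which passes clusters from the Nubp1 and Nubp2 scaffold to the targeting complex, rose by 0.40 (adjusted p = 0.00109). The heme-binding proteins Hebp1 and Hebp2 fell, by 0.64 (adjusted p = 1.79e-04) and 0.43 (adjusted p = 0.0474) on the log2 scale, and the call of Hebp2 was lost in 6 alternatives, among them the fits without WT replicate 1 or 3 and without knockout replicate 1 or 2.

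Of 36 tested proteins that carry iron-sulfur clusters, 4 rose and 6 fell (27.8%, against 41.7% of all tested genes), and the median log2 fold change was 0.04. Cisd3, a mitochondrial cluster protein, went from 31.0 ± 1.48 to 19.3 ± 1.73 CPM (SD), a log2 fold change of -0.68 (adjusted p = 1.47e-05). Mutyh, a DNA glycosylase of base excision repair, fell by 0.51 (adjusted p = 9.77e-05). Cisd2 of the endoplasmic reticulum membrane rose by 0.32 (adjusted p = 0.00253) and the helicase Rtel1, which unwinds telomeric DNA, by 0.24 (adjusted p = 0.00474).

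Promoter windows were searched for 4 short motifs to see what members that moved share in sequence. RefSeq windows (GRCm38.p6, 250 bases before to 50 after each gene's start) were found for 35 of the 41 genes, 46 windows in all. No window was matched for Fech, Slc25a37, Hscb, Hmox1, Iscu and Slc48a1. Both strands were searched, and a match is a description of letters only. GCATGCGC, the core of the NRF1 motif, was in the windows of Alas1 and Abcb10, both of which rose (3 of 46 windows, 6.52%, against 4.81% of the 14619 windows of tested genes and 2.71% of all 32851 windows). CACGTG, the E-box read by several helix-loop-helix factors, was in 8 of 46 windows (17.4%, against 9.71% and 7.15%). It was found at 6 genes, of which Alad and Nubp2 rose, Mms19 and Nubpl fell, and Urod and Uros did not pass. Windows of the same gene can overlap. The GCATGCGC site of Alas1 and the CACGTG site of Mms19 lie in overlapping windows, so the window counts include each more than once. The sequences below are the GCATGCGC matches at the pair of genes that rose and CACGTG matches at genes of both directions. Each is read 5′ to 3′ on the strand of the gene, with the motif in capitals. In the windows of Alas1 and Abcb10 the capitals cover the longer palindrome that contains it. The Nubp2 stretch holds CACGTG a second time, which is left in lower case.
Alas1 (chr9:106247906-106247935, minus strand): cgcacccaagGCGCATGCGCggcggtcact
Abcb10 (chr8:123983135-123983164, minus strand): cctgagtgccGCGCATGCGCactccgccag
Alad (chr4:62519920-62519949, minus strand): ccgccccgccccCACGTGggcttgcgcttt
Nubp2 (chr17:24885957-24885986, minus strand): gaagtgagcgttCACGTGtgcacgtgcctt
Mms19 (chr19:41981222-41981251, minus strand): agagccggcaggCACGTGacctggaggtgc
Nubpl (chr12:52097703-52097732, plus strand): gccaagggttgcCACGTGacgtcatttttc

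TGACNNNGC, the letters of the antioxidant response element, was in 17.4% of the member windows, against 14.2% of the windows of tested genes and 12.4% of all windows. Its 8 genes were Ciao1 and Slc25a38, which rose, Nfs1, which fell, and Blvra, Bola1, Ciapin1, Flvcr1 and Isca1, which did not pass. AGATAA, a motif of GATA factors, was in 8.7% of member windows, against 6.39% of the windows of tested genes and 11.2% of all windows, at Alas2, Cpox, Iba57 and Isca2. The window of the erythroid gene Alas2, in which this motif is known from red cell promoters, held it on the opposite strand, so that it reads TTATCT on the strand of the gene.
Alas2 (chrX:150547319-150547348, plus strand): ctactttgctttTTATCTttagcagaggcc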

How the data were processed

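RNA of 3 WT and 3 Bdh2-knockout ASC libraries had been sequenced. The authors trimmed adaptors, dropped reads of low quality, aligned what remained to GRCm38 using HISAT2 (2.0.5, per the labels) and deposited raw counts per gene from featureCounts, with gene lengths. The annotation release, strand setting and handling of reads with several matches are not given in the sources used here. The counts were fitted here over all genes with edgeR 4.0.16 (R 4.3.3): TMM factors, filterByExpr, genotype as the only term, the quasi-likelihood test and Benjamini-Hochberg adjustment over all 16758 tested genes at 0.05. The remaining genes had too few counts to be tested. The edgeR fit gave no standard error. Those printed (SE) are the size of the log2 fold change divided by the square root of the quasi-likelihood F statistic. Normalized CPM compare genotypes, and TPM, computed from counts and the authors' lengths, compare genes. For single ratios an exact permutation test (two-sided) was used. Exon overlaps came from GENCODE M21 (GRCm38). The fitting code was tested on simulated data.

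The 41 genes, the further lists and the tests were chosen with earlier results of these data known. All 41 genes are named, with the values of all libraries for the 3 largest called increases and decreases of each class and for members that differ by at least 0.5 (log2) without overlap. Of each further list of pathway genes, up to 2 called genes with the largest increase and 2 with the largest decrease among those with a mean count of at least 50 are named. Gata1, Gata6, Cd68, Csf1r, Lyz2, Col1a1, Col1a2 and the overlapping genes were named after their values were seen.

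Alternatives were DESeq2 1.42.0, the test the authors used, limma-voom (limma 3.58.1), other scaling and filters, the replicate block, a hepatocyte score as covariate and leaving out each library. Leaving out the 3 libraries highest in hepatocyte transcripts, or the chromosome 16 genes, was added after seeing the data. Replicates of a genotype differed by more than sampling noise (chi-square per gene of 4.07 to 9.57), so none was treated as a library deposited again. This does not show that they were separate cultures. Intervals from counting error were not needed, since every value has 3 libraries.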

Additional observations from a re-analysis of the deposited data

How the results depend on the processing

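Of the 25 genes called among the 41, 15 were called in all 14 alternatives listed at the outset and 16 in every fit that left out 1 library. The number called was 19 with DESeq2 (18 shared), 26 with library totals (23 shared), 27 with limma-voom, 24 without a filter, 20 with the hepatocyte covariate and 18 without the 3 libraries highest in hepatocyte transcripts (17 shared, chosen after seeing the data). In that last fit the lone WT library was assumed to vary like the knockout group. Genes called lower were 8 with DESeq2 and 9 to 13 when 1 library was left out (9 without knockout replicate 3), against 14.

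In mitochondrial assembly, 0 genes were higher with library totals and with the hepatocyte covariate, 2 with limma-voom, and 0 to 2 when 1 library was left out. Genes lower there were 5 with DESeq2, 5 without the 3 hepatocyte-rich libraries, and 5 to 9 when 1 was left out (5 without knockout replicate 3). In heme synthesis, 2 genes were called with the hepatocyte covariate and 2 without the 3 hepatocyte-rich libraries, with 1 higher and 1 lower in each. Leaving out 1 library gave 3 to 5 called (3 without WT replicate 1 or knockout replicate 2) and 1 to 2 lower. There, 1 was lower with DESeq2 and 1 with a mean count of at least 50, which removes Alas2 from the test. In heme breakdown and transport, 1 was lower with DESeq2 and without a filter, 5 with library totals and 1 to 2 when 1 library was left out (1 without WT replicate 3). The causes of these changes were not tested.

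Changes of sign occurred only in genes that did not pass. The log2 fold change of Iscu was 0.0125 with the covariate, 0.0197 without the 3 hepatocyte-rich libraries and between -0.0718 and 0.0180 when 1 library was left out. The log2 fold change of Glrx5 was -0.0367 without the 3, the log2 fold change of Isca1 was -0.0035 with library totals, and the log2 fold change of Fech was -0.0126 with the covariate. The log2 fold change of Bola1 was 0.0415 without the 3 and between -0.0814 and 0.0070 when 1 was left out. That of Fdx1 was between -0.0745 and 0.0375 when 1 was left out. The log2 fold change of Urod was -0.0367 with library totals, -0.0327 without the 3 and between -0.0347 and 0.0650 when 1 was left out. Of the 16 genes that did not pass, 6 (Nfu1, Lyrm4, Glrx5, Blvra, Abcb6 and Flvcr1) passed in at least 1 of the 14 alternatives.

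With the replicate number as a block, 25 genes were called, 24 of them shared: Slc48a1 was lost and Flvcr1 gained. Same-numbered libraries deviated together with correlations of -0.15, 0.10 and 0.25, so the numbers were not taken to pair them. FPKM in place of TPM gave the same kind of level per length. Few reads limit Alas2 and Abcb6, which had under 40 counts in every library.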
